A study of Mus musculus with 2 samples.

Results

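Pigment cells and the pigment epithelium of the retina share most of the program that makes melanin. Examined here were 10 genes of this program or of the visual cycle, selected by symbol from the 45777 genes of the deposited mm10 table. They are Tyr, Tyrp1, Dct, Pmel, Mlana, Slc45a2, Oca2, Mitf, Rpe65 and Rlbp1, and all 10 symbols were found. RNA-seq of teratomas was available as 1 library of E14 cells, a mouse embryonic stem cell (ESC) line with wild-type Sox2, and 1 library of E14-Sox2TA/WT cells, in which CRISPR-Cas9 editing placed T258A on 1 Sox2 allele and left the other wild type. The study grew the edited line from single cells, inoculated both lines under the skin of BALB/c-nu mice, and harvested teratomas at 14 days. Its methods do not state whether a library came from 1 teratoma or from several, and the labels' extraction protocol names an ESC line although the tissue label is teratoma. The host is albino and immunodeficient, and the reads do not separate its transcripts from those of the graft. Reads assigned to genes numbered 50529171 for E14 and 49030281 for E14-Sox2TA/WT. With 1 library per group, no difference here has a replicate check and no test was run. Ranges given after a ratio or share are 95% Clopper-Pearson limits, which reflect counting error alone and say nothing of other teratomas. A ratio is called beyond counting error where its limits leave out 1. The share of all genes for which they do was not computed, and abundant genes can pass at small ratios, such as Apoe at 1.04 (1.03 to 1.06).

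Melanin is made in melanosomes, organelles related to lysosomes. Melanocytes arise from the neural crest, whereas the retinal pigment epithelium arises from the optic vesicle, an outgrowth of the forebrain. In both lineages the transcription factor Mitf binds E-boxes in the promoters of the genes for melanin enzymes. The pigment epithelium also recycles retinaldehyde for the photoreceptors in the visual cycle. Sox2 acts in neural progenitors and in the early eye. Melanocytes of albino BALB/c mice still carry Tyr transcripts, since the albino change lies in the protein.

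The melanin and melanosome genes were at or near 0 in both teratoma libraries, other than Pmel, which was low in both, and Mlana. Mlana had no reads in the E14 sample and 87 in the E14-Sox2TA/WT sample. Mitf was present at a low level in both. Rlbp1 was the most abundant of the 10 genes in the E14 sample and was 3.56-fold lower (2.97 to 4.29) in the E14-Sox2TA/WT sample. No reads were assigned to Rpe65. In bulk tissue, fewer cells of a type and less RNA per cell cannot be told apart.

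**Figure D1:**
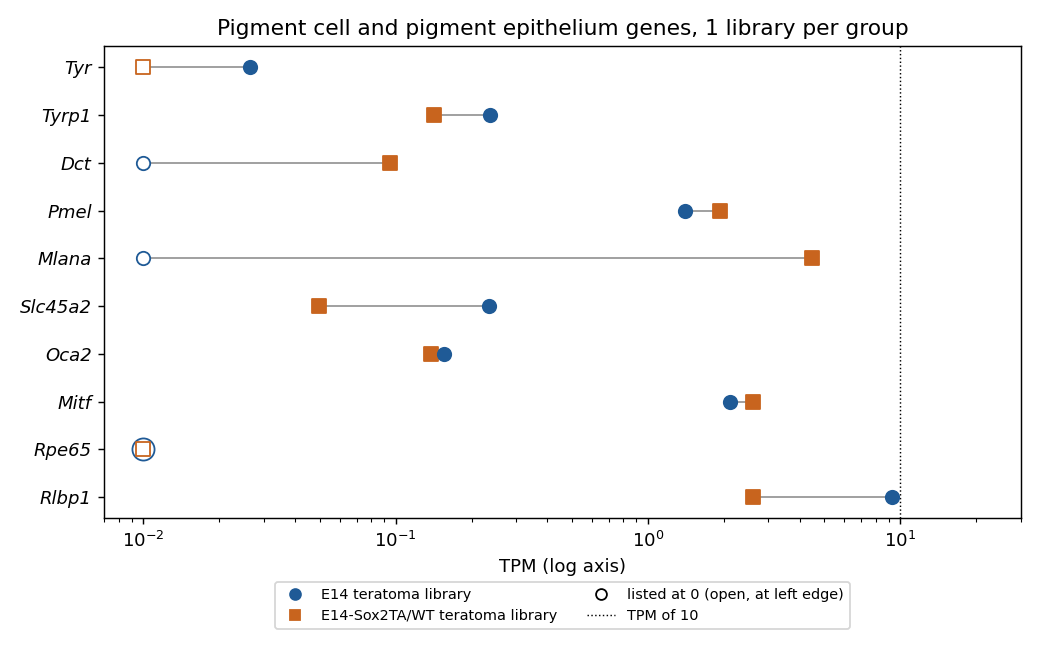
TPM, on a log axis, of each of the 10 genes in the E14 sample (circles) and the E14-Sox2TA/WT sample (squares), 1 library per group, with genes listed at 0 drawn open at the left edge. Every point lies below the dotted line at a TPM of 10; Rlbp1 comes closest, at 9.26 in the E14 sample, and Mlana moves from 0 to 4.49.

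Levels are given in TPM, which is scaled by transcript length and so can be compared between genes. The study called a gene differentially expressed when its fold change exceeded 2 and its TPM reached 10 in at least 1 library. None of the 10 genes reached a TPM of 10, so 0 of 10 entered that comparison. Of the 11578 genes that did, 10.8% were higher and 18.7% were lower by more than 2-fold in the E14-Sox2TA/WT sample. With FPKM, the other deposited scale, these shares were 13.7% and 14.3% over the same genes. With a minimum TPM of 1, 4 of the 10 genes entered, namely Pmel, Mlana, Mitf and Rlbp1. Mlana was then higher by more than 2-fold and Rlbp1 lower, where 19.3% of 18558 genes were higher and 18.9% lower (22.9% and 15.1% by FPKM). With no minimum, 9 of the 10 genes had a read, of which the listed TPM of 2 was higher and of 3 lower by more than 2-fold, against 31.4% and 20.6% of 29148 genes with a read. Apart from Pmel, Mlana, Mitf and Rlbp1, 6 genes were below a TPM of 1 in both libraries, as were 28.5% of the 21949 protein-coding genes. The summed TPM of the 10 genes was 13.4 in the E14 sample and 12.1 in the E14-Sox2TA/WT sample. This near-equal sum held different genes, with Rlbp1 contributing 68.9% of it in the E14 sample and 21.5% in the E14-Sox2TA/WT sample.

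Tyr, Tyrp1 and Dct encode the related enzymes of melanin synthesis, and tyrosinase, from Tyr, carries out the first step. They are shown first by sequence, because their promoters hold the E-box context through which Mitf is known to act. Each line below is a stretch of the promoter on GRCm38.p6 from RefSeq, read 5′ to 3′ along the gene's strand, with the motif TCATGTG in capitals.
Tyr, chr7:87493488-87493574: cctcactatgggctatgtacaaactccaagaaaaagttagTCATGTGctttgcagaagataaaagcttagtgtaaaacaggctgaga
Tyrp1, chr4:80834126-80834212: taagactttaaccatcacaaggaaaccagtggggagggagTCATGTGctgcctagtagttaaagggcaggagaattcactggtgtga
Dct, chr14:118052351-118052437: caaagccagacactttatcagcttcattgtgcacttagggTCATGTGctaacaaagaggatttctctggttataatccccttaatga
Tyr and Dct lie on the minus strand and Tyrp1 on the plus strand. The capitals begin 22 bases before the transcription start of the RefSeq window of Tyr, 47 before that of Tyrp1 and 151 before that of Dct. The start used for Tyrp1 lies downstream of the first base of its annotated gene span, so the stretch shown falls within that span. Dct holds a further match on the opposite strand, farther upstream.

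Promoter windows, from 250 bases before to 50 after the start, were found for 7 of the 10 genes. These genes have 9 windows, of which 3 belong to Mitf. Counts below are of genes with a match in any of their windows, whereas the shares of all windows are per window. TCATGTG, searched on both strands, occurred in the windows of these 3 genes among the 7, and in 3.77% of all 32851 windows. The shorter E-box CATGTG, which TCATGTG contains, occurred in 6 of the 7 (Tyr, Tyrp1, Dct, Oca2, Rpe65 and Rlbp1) and in 14.2% of all windows. The E-box CACGTG occurred in 0 of the 7 and in 7.15% of all windows. TAATCC, the motif bound by Otx2, a factor of the forebrain and the pigment epithelium, occurred in 4 of the 7 (Tyrp1, Dct, Mitf and Rpe65) and in 7.06% of all windows. A match describes letters and not occupancy.

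Reads of the enzymes were few in both libraries. Tyr, on chromosome 7 from 87424771 to 87493512, had 4 reads (TPM 0.0265) in the E14 sample and 0 in the E14-Sox2TA/WT sample. The exact interval of the ratio of reads per library total ran from 0 to 1.56, so no difference was detectable at this depth. Tyrp1, on chromosome 4 from 80834123 to 80851736, had 16 reads (TPM 0.237) and 11 reads (TPM 0.142). Its ratio of 0.600 had an interval from 0.252 to 1.38, so no difference was detectable at this depth. Dct, dopachrome tautomerase, on chromosome 14 from 118012790 to 118052246, had 0 reads in the E14 sample and 6 (TPM 0.0949) in the E14-Sox2TA/WT sample. The lower limit of its ratio was 1.21, just beyond counting error, and its share of the reads on the 10 genes had overlapping intervals. Together the 3 enzymes had 20 reads in the E14 sample and 17 in the E14-Sox2TA/WT sample. Among genes with a read, Tyrp1 exceeded 18.5% in the E14 sample and 15.6% in the E14-Sox2TA/WT sample.

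Pmel and Mlana encode proteins of the early melanosome. Pmel forms the fibrils on which melanin is laid down, and Mlana takes part in the maturation of Pmel. Mlana, on chromosome 19 from 29697541 to 29708447, had 0 reads in the E14 sample and 87 in the E14-Sox2TA/WT sample, with TPM of 0 and 4.49. It was at least 26-fold higher, with 3 reads taken as the limit for the E14 sample, and the exact lower limit of the ratio of reads per library total was 23.8. No annotated gene overlaps Mlana. Its neighbours went in both directions, with 9930021J03Rik at 2634 and 1689 reads and Gm36126 at 2 and 14. Of 4716 protein-coding genes with 0 reads in the E14 sample, 127, or 2.69%, had as many reads as Mlana or more in the E14-Sox2TA/WT sample. Most of the 4716, namely 3161, had 0 reads in both libraries. The median log2 ratio of chromosome 19 genes, taken relative to that of all genes at a TPM of 1 or more, was 0.04.

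Pmel, on chromosome 10 from 128695888 to 128720238, had 82 reads (TPM 1.40) in the E14 sample and 115 (TPM 1.94) in the E14-Sox2TA/WT sample. The ratio was 1.39 (1.03 to 1.86), just beyond counting error. Its annotated span overlaps 3 other genes, Rab5b, Cdk2 and Dgka. Cdk2, a cell-cycle kinase, had 2794 and 3694 reads, and Rab5b had 5349 and 2880. Use of strand in the counting is not given in the sources used here, so reads of these neighbours could be counted on Pmel and its value is uncertain. Mlana was thus absent from one library's reads, whereas Pmel was read in both at similar levels.

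Slc45a2 and Oca2 encode transporters of the melanosome membrane, and loss of either causes albinism. Slc45a2, on chromosome 15 from 11000721 to 11029233, had 17 reads (TPM 0.234) in the E14 sample and 4 (TPM 0.0499) in the E14-Sox2TA/WT sample. It was 4.70-fold lower, with an interval from 1.53 to 19.2, whereas the relative median log2 ratio of chromosome 15 genes was 0.41 (0.34 to 0.49). Oca2, on chromosome 7 from 56239593 to 56536518, had 13 reads in each library (TPM 0.156 and 0.138). Its ratio of 0.883 had an interval from 0.377 to 2.07, and no difference was detectable at this depth. Slc45a2 and Oca2 were below a TPM of 1 in both libraries, and their counts leave wide limits.

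Mitf, on chromosome 6 from 97807002 to 98021360, is the master regulator of melanocytes and is also used in the pigment epithelium, osteoclasts and mast cells. It had 256 reads (TPM 2.12) in the E14 sample and 354 (TPM 2.62) in the E14-Sox2TA/WT sample. The ratio was 1.24 (1.05 to 1.46), beyond counting error and below 2-fold. Across scalings of the libraries it ranged from 1.24 to 1.43. Mitf has several promoters that give isoforms with different first exons, and the gene-level table does not separate them. Of the 3 Mitf windows in RefSeq, the one farthest downstream is that of the melanocyte isoform, on the plus strand of GRCm38.p6. It is shown in part because cyclic AMP, raised by the melanocortin receptor, acts through the element TGACGTCA, here in capitals, which begins 153 bases before the start.
Mitf, melanocyte promoter, chr6:97991570-97991697: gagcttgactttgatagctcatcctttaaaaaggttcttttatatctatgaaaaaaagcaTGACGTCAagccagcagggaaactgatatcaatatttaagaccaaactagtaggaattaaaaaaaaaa
This element, chosen after the sequence was seen, occurred in 1.79% of all windows. Mc1r, the melanocortin receptor, had 1 read in the E14 sample and 2 in the E14-Sox2TA/WT sample. The windows of Mitf held neither TCATGTG nor CATGTG.

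The MiT family consists of Mitf and 3 relatives that bind the same sequences and control lysosomal genes. Tfe3 was the most abundant, at a TPM of 30.2 in the E14 sample and 27.6 in the E14-Sox2TA/WT sample, a ratio of 0.914 (0.863 to 0.968) that turned to 1.05 by FPKM. Tfeb was 3.53-fold higher (3.04 to 4.12) in the E14-Sox2TA/WT sample, at a TPM of 3.90 and 13.8. Tfec, which is expressed in the pigment epithelium and in macrophages, had 46 and 384 reads and was 8.31-fold higher (6.11 to 11.5), at a TPM of 0.432 and 3.58. Of the 4 genes 3 were higher by TPM and 4 by FPKM. Their log2 ratios of TPM + 1 ran from -0.13 to 1.68, with a median of 0.90. Mitf differed least of those higher by TPM.

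Rpe65 and Rlbp1 belong to the visual cycle. Rpe65, the isomerase of the pigment epithelium, on chromosome 3 from 159599075 to 159625307, had 0 reads in both libraries. A count of 0 allows up to 3 reads in each, so no fold can be given. Rlbp1, on chromosome 7 from 79374865 to 79392250, encodes a retinaldehyde-binding protein found in the pigment epithelium and in Müller glia, the glia of the neural retina. It had 502 reads (TPM 9.26) in the E14 sample and 156 (TPM 2.60) in the E14-Sox2TA/WT sample, a ratio of 0.281 (0.233 to 0.337). Scaling moved this ratio between 0.281 and 0.322. The relative median of chromosome 7 genes was -0.11. No annotated gene overlaps Rlbp1. Its neighbours went in both directions, with Abhd2 at 1326 and 612 reads and Fanci at 834 and 1043.

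**Figure D2:**
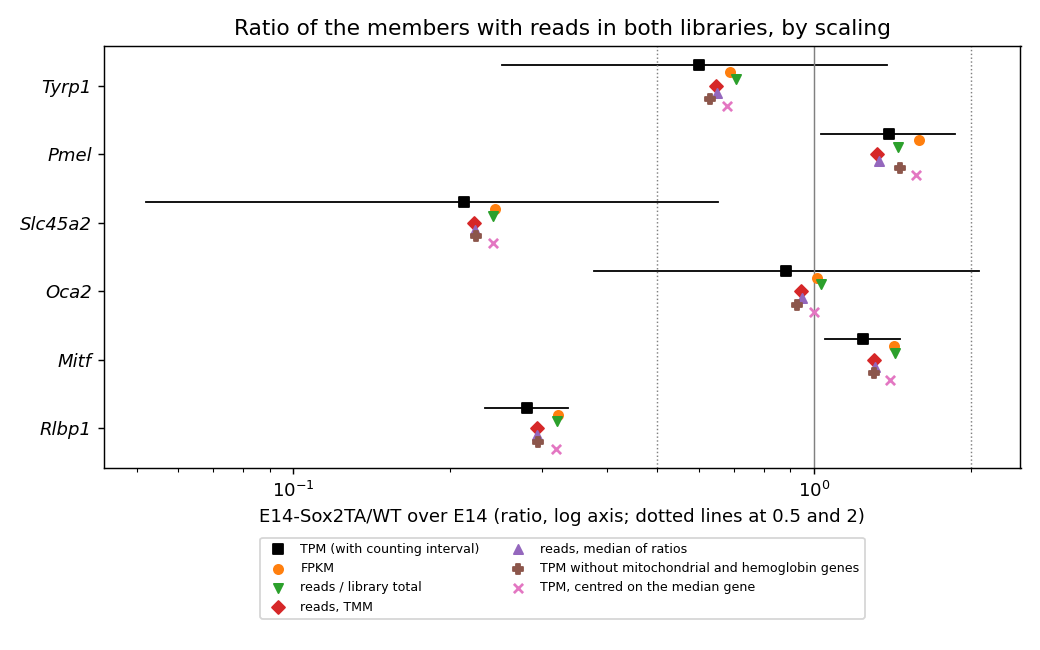
Ratio of the E14-Sox2TA/WT sample to the E14 sample, on a log axis, for the 6 genes with reads in both, with each symbol a way of scaling the libraries and the black line the 95% counting interval of the TPM ratio. Rlbp1 and Slc45a2 lie left of 1 under every scaling, Mitf and Pmel right of it, and the lines of Tyrp1 and Oca2 cross 1.

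Shares within a library do not depend on how the libraries are scaled. Of the 890 reads on the 10 genes in the E14 sample, Rlbp1 held 56.4% (53.1% to 59.7%), and of the 746 in the E14-Sox2TA/WT sample it held 20.9% (18% to 24%). The share of Mitf was 28.8% (25.8% to 31.9%) and 47.5% (43.8% to 51.1%). A share depends on the other genes in the total, and without Rlbp1 that of Mitf was 66% (61% to 70.7%) and 60% (55.9% to 64%). Mlana held 0% of the reads in the E14 sample, which allows up to 0.414%, and 11.7% (9.45% to 14.2%) in the E14-Sox2TA/WT sample. Pmel held 9.21% and 15.4%, and without Rlbp1 21.1% and 19.5%. With all 10 genes in the total, the intervals of Rlbp1, Mitf, Pmel and Mlana did not overlap between the libraries. Those of Tyr, Tyrp1, Dct, Slc45a2 and Oca2 overlapped, and no share of these exceeded 1.91%. Without Rlbp1 in the total, the intervals of Mitf overlapped too, as did those of Pmel (17.2% to 25.5% and 16.4% to 22.9%). How often such intervals part among all genes was not computed.

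The order of the 10 genes by TPM differed between the libraries. In the E14 sample Rlbp1 came first, at 9.26, followed by Mitf at 2.12 and Pmel at 1.40. Tyrp1, Slc45a2 and Oca2 followed with 16, 17 and 13 reads, counts too close to be ordered, then Tyr, while Mlana, Dct and Rpe65 were at 0. In the E14-Sox2TA/WT sample Mlana came first, at 4.49, ahead of Mitf at 2.62, Rlbp1 at 2.60 and Pmel at 1.94. Mitf and Rlbp1 were thus level there, where the E14 sample had them apart. Tyrp1, Oca2, Dct and Slc45a2 lay between 0.142 and 0.0499, on 4 to 13 reads, and Tyr and Rpe65 were at 0. Per unit of transcript length Mlana exceeded Mitf although it had fewer reads, since its fitted length was 802 bases. Among genes with a read, Rlbp1 stood above 56.3% in the E14 sample and 46.6% in the E14-Sox2TA/WT sample, and Mitf above 39.9% and 46.7%. Mlana stood above 52.7% of the genes with a read in the E14-Sox2TA/WT sample.

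Grouped by role, the 3 enzymes summed to a TPM of 0.264 in the E14 sample and 0.237 in the E14-Sox2TA/WT sample. The transporters Slc45a2 and Oca2 summed to 0.390 and 0.188. Pmel and Mlana summed to 1.40 and 6.43. The 7 melanin and melanosome genes together had 132 and 236 reads, of which Pmel and Mlana held 82 and 202.

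Other genes of pigment biology were taken from hand-made lists. In the melanosome biogenesis and transport list, 22 of 25 genes had a TPM of at least 1, of which 8 were higher and 14 lower in the E14-Sox2TA/WT sample by TPM, and 11 each way by FPKM. After 1 was added to each TPM, their median log2 ratio was -0.16 (order-statistic interval -0.68 to 0.12). Over all genes that reached a TPM of 1 it was -0.06, with 47.5% higher and 52.5% lower by TPM. By FPKM the median of the list was 0.02. Of the 11 genes that reached a TPM of 10, 0 were higher and 2 lower by more than 2-fold, Myo5a and Bloc1s3, a share near the 18.7% of all genes. Myo5a, the motor that carries melanosomes and also neuronal cargo, was at a TPM of 23.8 and 11. Bloc1s3, a subunit of the complex that sorts melanosome proteins, was at 14.7 and 7.14. Cd63, a tetraspanin of lysosomes and melanosomes, was at 272 and 397, and Ap3d1, of an adaptor complex, at 72.4 and 44.7. Many genes of the list also serve lysosomes in other cells.

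Restricted genes of the pigment program did not go one way. Slc45a2 had 17 and 4 reads and Oca2 13 in each library, whereas 3 genes of the melanosome list, chosen after their values were seen and because they were higher in the E14-Sox2TA/WT sample, are given as a description. Gpr143, a receptor on melanosomes, went from 0 to 13 reads, 3.88-fold higher with 3 reads taken as the limit for the E14 sample. The exact lower limit of its ratio of reads per library total was 3.14. Slc24a5, a melanosome exchanger, went from 2 to 45 reads, a ratio of 24.1 (6.29 to 205), and Mlph, which links melanosomes to Myo5a and occurs in other epithelia, from 40 to 334, a ratio of 7.54 (5.42 to 10.8). Trpm1, a channel of melanocytes and retinal bipolar cells, had 21 and 48 reads, and Rab32, a small GTPase of melanosomes, 394 and 383. The TPM of Gpr143, Slc24a5 and Mlph in the E14-Sox2TA/WT sample lay between 0.292 and 2.79. The melanin enzymes did not share this pattern as a group, with 20 and 17 reads. Rab27a and Rab38, small GTPases that act in melanosomes and in other secretory organelles, were at a TPM of 3.92 and 9.05 and of 4.45 and 9.46.

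Among regulators and receptors of the melanocyte lineage, 15 of 16 genes were in the table and 14 had a TPM of at least 1. Of these, 8 were higher and 6 lower in the E14-Sox2TA/WT sample, with a median log2 ratio of 0.35 (-1.03 to 0.79). The median over the 7 genes that reached a TPM of 10 was -0.49, so its direction depended on the filter. Of these 7, 1 was higher and 3 were lower by more than 2-fold, where all genes gave 10.8% and 18.7%. Sox10, which activates Mitf in the neural crest and is also a factor of oligodendrocytes, was at a TPM of 21.6 and 6.81, 3.17-fold lower (2.86 to 3.52). Ednrb, the endothelin receptor of melanoblasts that astrocytes and neural progenitors also carry, was 3.94-fold lower (3.82 to 4.07), at 190 and 48.2. Zeb2, a transcription factor of the neural crest and of neurons, was at 25.8 and 12.1. Pomc, the precursor of the melanocortins, was higher, at 5.29 and 13.7, and Kitl, the ligand of Kit, was at 17.1 and 33.3, a ratio of 1.95. Pax3, another activator of Mitf, was at 5.38 and 8.34 and Kit at 25.3 and 17.7. Sox10, Ednrb, Zeb2, Kitl and Kit were thus above the most abundant of the 10 pigment genes in both libraries.

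The optic vesicle list was lower in the E14-Sox2TA/WT sample in 9 of the 12 genes that reached a TPM of 1, with a median log2 ratio of -2.19 (-4.28 to 0.24). Of the 7 that reached a TPM of 10, 0 were higher and 6 lower by more than 2-fold. All genes gave 10.8% and 18.7% by the same rule. Six6, an eye field factor, had 3266 reads in the E14 sample and 46 in the E14-Sox2TA/WT sample, 80.7-fold lower (60.3 to 110). Six3 was 89.5-fold lower (61.3 to 136), at a TPM of 23.9 and 0.267. Lhx2, which the optic vesicle and the telencephalon require, was at 50.2 and 1.63, and Rax, another eye field factor, at 16.9 and 0.581. Six3, Six6 and Lhx2 also mark the forebrain or hypothalamus, so the list does not single out eye tissue. Otx2, which the pigment epithelium needs, was at 45.2 and 36.4, a ratio of 0.805 (0.760 to 0.853). By qPCR of teratomas, the study reported lower expression of ectodermal markers, a set that held Otx2. Summed TPM of the list was 242 and 56.0.

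In the list of other pigment epithelium and visual cycle genes, 14 of 20 had a TPM of at least 1, of which 10 were higher and 4 lower in the E14-Sox2TA/WT sample. The median log2 ratio was 1.16 (-0.76 to 1.80). Of the 7 genes of the list that reached a TPM of 10, 6 were higher and 0 lower by more than 2-fold. Over all genes these shares were 10.8% and 18.7%. The genes that led were not particular to the eye. Ttr, which carries thyroxine and retinol-binding protein and is abundant in liver, visceral endoderm and choroid plexus, was at a TPM of 1.32 and 41.1. Rbp4, the retinol carrier of plasma, was at 3.57 and 57.6, and Serpinf1, a secreted factor, at 29.9 and 94.4. More restricted genes stayed low in level, though not all were level between the libraries. Rgr, the opsin of the pigment epithelium, had 0 reads in both libraries as Rpe65 did. Best1 had 26 and 75 reads, a ratio of 2.57 (1.62 to 4.18), and Lrat, the enzyme that precedes Rpe65, had 47 and 45. Among retinol dehydrogenases, which were chosen after their values were seen, Rdh5 of the pigment epithelium was at 7.76 and 3.48 and Rdh11 at 42.3 and 23, whereas Rdh10 was at 12.9 and 29.3. Stra6, the receptor that takes up retinol from Rbp4, was at 4.18 and 17.1.

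**Figure D3:**
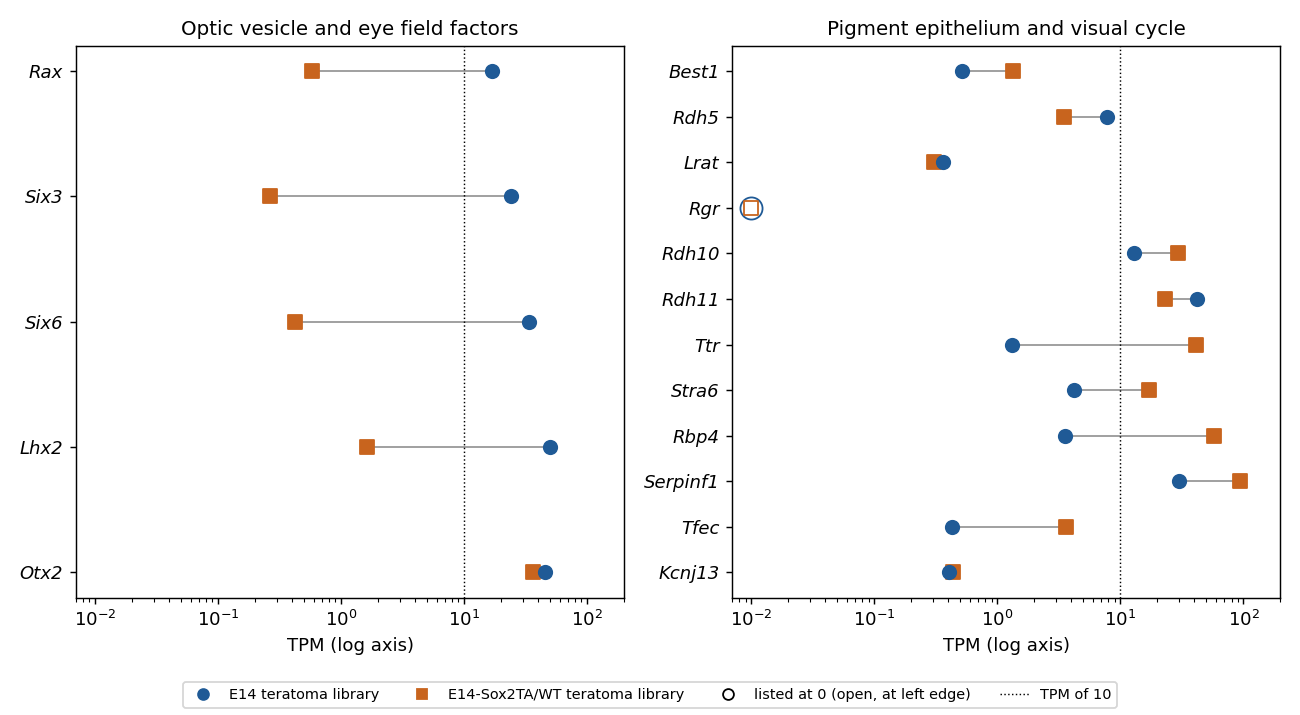
TPM, on log axes, of the genes named in the text among optic vesicle and eye field factors (left) and among other pigment epithelium and visual cycle genes (right), in the E14 sample (circles) and the E14-Sox2TA/WT sample (squares), with the dotted line at a TPM of 10 and open symbols for genes listed at 0. Six3, Six6 and Lhx2 run far to the left in the E14-Sox2TA/WT sample, while Ttr and Rbp4 run to the right.

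Rlbp1, Mitf, Tfec and Gpnmb are also expressed outside pigment cells, and markers of other cell types were read beside them. All 10 genes of the list for Müller glia and astrocytes, which express Rlbp1 in the retina and brain, had a TPM of at least 1, and 3 were higher and 7 lower in the E14-Sox2TA/WT sample by TPM and 5 each way by FPKM, at a TPM median log2 ratio of -0.47 (-1.07 to 0.07). Their summed TPM was 3813 and 2944, and Slc1a3, a glial glutamate transporter, was 3.42-fold lower (3.34 to 3.50), whereas Car2, a carbonic anhydrase, was at 32.9 and 143. The part of glial cells in the Rlbp1 difference was not tested. All 10 macrophage genes were higher, at a median of 0.59 (0.32 to 1.20) and a summed TPM of 978 and 1666. Gpnmb, a melanosome glycoprotein that macrophages also make, had 110 and 469 reads, and the part of macrophages in the values of Mitf, Tfec and Gpnmb was not tested.

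Of 21 photoreceptor genes, 3 reached a TPM of 1, 2 higher and 1 lower. Their log2 ratios ran from -0.39 to 1.56, with a median of 0.31. Summed TPM of the list was 6.95 and 13.2. Reads were 0 for 12 of the 21 in the E14 sample and for 6 in the E14-Sox2TA/WT sample. In both libraries Rcvrn, Opn1sw, Opn1mw and Arr3 were at 0, as Rpe65 was. Others were at 0 in the E14 sample alone, such as Gnat2 with 0 and 38 reads, Nrl with 0 and 16 and Crx with 0 and 6. Nr2e3, with 3 and 0 reads, and Prph2, with 4 and 0, went the other way. The choroid plexus list shares Ttr, Kcnj13 and Otx2 with the eye lists, and 5 of its 6 genes at a TPM of at least 1 were higher, at a median of 1.25 (-0.31 to 4.18) and a summed TPM of 78.1 and 182.

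For Schwann cells and neural crest, the lineage of melanocytes, 9 of 11 genes reached a TPM of 1, 5 higher and 4 lower, at a median of 0.41 (-1.58 to 0.79) and a summed TPM of 217 and 119. Over the 5 genes that reached a TPM of 10 the median was -1.53, so its direction depended on the filter. Skin holds melanocytes in its hair follicles, and the teratomas grew beneath it. In the list for keratinocytes and hair follicle, 7 of 12 genes reached a TPM of 1, 5 higher and 2 lower, at a median of 0.50 (-1.43 to 4.37) and a summed TPM of 198 and 442. The median was 2.51 over the 4 genes that reached a TPM of 10. Among hair follicle genes, Krt25 had 0 and 26 reads, Krt27 0 and 4, Krt71 0 and 7, Krt73 14 and 2, and Tchh 123 and 135, so they did not go one way. Krt14, of the basal epidermis, was at a TPM of 8.09 and 58.9. The part of skin in the Mlana difference was not tested.

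**Figure D4:**
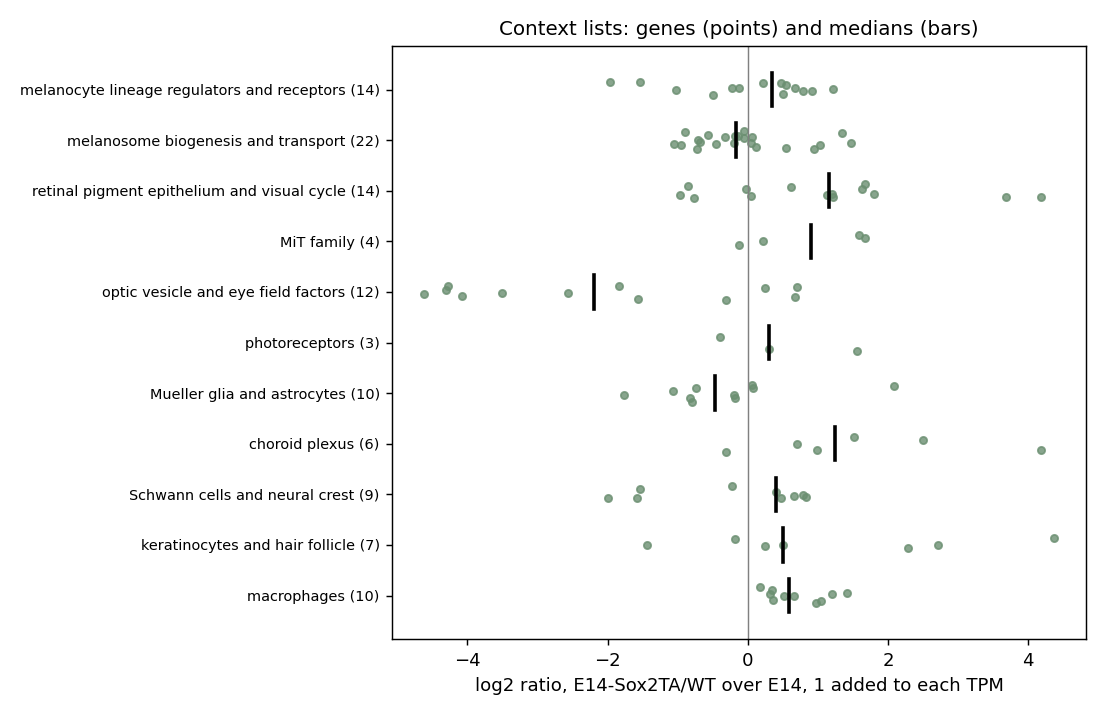
Log2 ratio of the E14-Sox2TA/WT sample to the E14 sample, with 1 added to each TPM, for the genes of each hand-made list that reached a TPM of 1 (points, with their number in parentheses) and the list median (bars). The optic vesicle list has the lowest median, at -2.19, and the bars of the melanosome and melanocyte lists, at -0.16 and 0.35, lie near 0.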

How the data were processed

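RNA-seq of 1 E14 and 1 E14-Sox2TA/WT teratoma library was analysed. For each library the authors deposited raw read counts, FPKM and TPM. The submitters' processing notes name bcl2fastq 2.20.0, Trimmomatic, HISAT2 2.1.0 and StringTie 2.1.3b, and the builds mm10 and hg19. Strand use, and whether mates of a pair were counted singly, are not given in the sources used here. If mates were counted singly, intervals are too narrow.

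Ratios of TPM were taken between libraries, with Clopper-Pearson intervals of the counts. No p-value was computed. The members and lists were chosen with earlier results of these data known. Asip was not found in the table. Genes named were the 10 members, the MiT family, and from each list the 2 most abundant in TPM and the 2 that differed most among those reaching a TPM of 10. Melanocyte lineage genes past the 2-fold rule were also named. Further genes (Mc1r, Pax3, Kit, Gpr143, Slc24a5, Mlph, Gpnmb, Rab27a, Rab32, Rab38, Trpm1, Krt73, Tchh, Stra6, Rdh5, Rdh10, Rdh11, Rax, Rgr, Best1, Lrat, the overlapping or neighbouring genes and the genes listed at 0, except members) were chosen after their values were seen. Some genes that the rule names are not reported here. Sox2 itself was at a TPM of 246 and 130, and gene-level counts do not show the edited base. All 10 members matched RefSeq of GRCm38.p6, the build of mm10, for positions, and 7 for promoters. No protein sequence was used, so the planned protein comparison was not run. Scripts were tested on simulated data. TMM factors came from edgeR 4.0.16 in R 4.3.3, and all else from Python 3.11.15 with scipy 1.17.1, pandas 2.3.3 and numpy 2.4.6.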

Additional observations from a re-analysis of the deposited data

How the results depend on the processing

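No paired analysis was possible because each group holds a single library, and for the same reason no library could be left out. FPKM in place of TPM moved the median log2 ratio of the 11578 genes that reached a TPM of 10 from -0.18 to 0.01, so small differences depend on the scaling. All 36 alternative values of the 6 ratios between the libraries stayed within the counting interval, and that of Oca2 ranged from 0.883 to 1.03. All 109 alternative medians of the lists stayed within their order-statistic intervals. These are wide, and in the smallest lists they run from the lowest gene to the highest. Staying within them therefore shows little, and medians that changed sign also did so. Over genes that reached a TPM of 10 the median of the melanocyte lineage list turned from 0.35 to -0.49 and that of the Schwann cell list from 0.41 to -1.53 (0.00 with no filter), and that of the keratinocyte list went from 0.50 to 2.51. That of the melanosome list turned from -0.16 to 0.02 by FPKM.

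The number of the 10 genes past the 2-fold rule, 0, became 2 when a TPM of 1 sufficed and 5 with no filter on TPM, where more genes are tested, with Dct and Mlana higher and Tyr, Slc45a2 and Rlbp1 lower in listed TPM. The reads of Tyr and Dct do not show a change beyond 2-fold. The other alternatives kept the TPM of 10, which no member reached, so their count of 0 was fixed. As a share of summed TPM in place of reads, Rlbp1 held 68.9% in the E14 sample, Mitf 15.8% there and 21.7% in the E14-Sox2TA/WT sample, and Mlana 37.2% in the latter, since TPM weights short transcripts more. Without Rlbp1, whose reads then leave the total, Mitf held 66% and 60%, Pmel 21.1% and 19.5%, and Mlana 14.7% in the E14-Sox2TA/WT sample. Leaving out Rlbp1 turned the shares of Mitf and Pmel from higher to lower in the E14-Sox2TA/WT sample, with intervals that then overlapped. Depth limits Tyr, Tyrp1, Dct, Slc45a2, Oca2 and Rpe65, all with 17 reads or fewer.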
